A study of Mus musculus with 15 samples.

Results

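Liver RNA of mice given corn oil and hepatocyte vesicles (oil + EVNorm) was compared with liver RNA of untreated littermates, 3 livers against 3 of the 15 that were sequenced. Every gene of the deposited table was tested. The authors kept these genes, 1711 that CCl4 induced and 1800 that it suppressed, for a difference between CCl4 and oil, so neither group compared here had a part in choosing them. EVNorm are extracellular vesicles released in culture by AML12, a single line of mouse hepatocytes. Oil + EVNorm mice were male Swiss Webster mice, 4 to 5 weeks old at the start, that received corn oil at 30 μl per 25 g i.p. 3 times a week for 5 weeks and, over the last 2 weeks, 80 μg EVNorm per 25 g i.p. 3 times a week on alternate days. Their livers were taken 36 h after the last injection of oil. Untreated mice were littermates that received no injection, and their age at sampling is not given in the sources used here. The oil, the injections and the vesicles cannot be told apart in this comparison. Oil mice and CCl4 mice served to describe the genes found. Oil mice received the oil on the same schedule and no vesicles. Whether they were injected on the alternate days is not given in the sources used here. CCl4 mice received CCl4 at 4 μl per 25 g in 26 μl of the oil, on the same schedule and without vesicles. CCl4 + EVNorm mice received CCl4 as those mice did and vesicles as oil + EVNorm mice did, and their livers were part of the fit. All mice given injections were of the same sex, strain and starting age.

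Whole liver is made up chiefly of hepatocytes, which secrete plasma proteins, make bile acids and detoxify foreign compounds with cytochrome P450 enzymes and transferases. Stellate cells store vitamin A and lay down collagen, sinusoidal endothelial cells line the capillaries, and cholangiocytes line the bile ducts. CCl4 is made toxic by hepatocyte P450 enzymes, and repeated doses bring hepatocyte death, cell division and fibrosis. Corn oil is its usual carrier, and an oil group is the usual control for it.

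The promoters of 3 genes described below are shown first, 250 bases before to 50 bases after the RefSeq transcription start on GRCm38.p6, read 5′ to 3′ on the gene's own strand. Cish and Moxd1 rose in oil + EVNorm liver and were lower in CCl4 than in oil liver, and capitals mark each match to TTCNNNGAA, the letters of a STAT5-type site, which read alike on both strands.

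Cish, chr9:107296409-107296708, plus strand: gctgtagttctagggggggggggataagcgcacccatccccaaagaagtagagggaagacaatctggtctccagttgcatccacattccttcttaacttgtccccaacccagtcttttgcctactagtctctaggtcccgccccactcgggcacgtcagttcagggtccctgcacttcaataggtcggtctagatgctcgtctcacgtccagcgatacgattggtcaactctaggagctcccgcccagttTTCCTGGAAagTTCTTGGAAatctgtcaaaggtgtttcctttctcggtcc
Moxd1, chr10:24223267-24223566, plus strand: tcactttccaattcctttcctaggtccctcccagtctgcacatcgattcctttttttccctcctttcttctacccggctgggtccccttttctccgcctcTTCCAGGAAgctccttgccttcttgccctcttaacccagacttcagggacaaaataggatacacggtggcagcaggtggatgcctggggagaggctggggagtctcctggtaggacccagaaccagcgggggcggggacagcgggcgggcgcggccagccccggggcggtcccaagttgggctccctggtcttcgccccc

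Hspe1 encodes the small subunit of the mitochondrial chaperonin and is shown as an example of the heat shock genes, 14 of which fell. It was chosen after its values were seen, and its own call did not hold in every fit that left out a liver. Capitals mark matches to a heat shock element, GAANNTTC or TTCNNGAA, whose letters also read alike on both strands and here overlap each other. Hspe1 lies head to head with Hspd1, which encodes the large subunit, so the window serves both genes.

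Hspe1, chr1:55087898-55088197, plus strand: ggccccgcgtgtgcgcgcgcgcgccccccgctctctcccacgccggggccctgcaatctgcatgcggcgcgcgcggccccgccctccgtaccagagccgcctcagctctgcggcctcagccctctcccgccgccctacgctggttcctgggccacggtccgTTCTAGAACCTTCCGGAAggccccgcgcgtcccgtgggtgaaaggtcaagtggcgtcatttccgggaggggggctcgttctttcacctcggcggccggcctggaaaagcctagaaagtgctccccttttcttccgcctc

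Values are normalized counts, that is reads per gene divided by a size factor for each library. Over these genes 6258733 to 7946433 reads were recovered from oil + EVNorm livers and 6556647 to 11055679 from untreated livers. Replicates spread more in untreated liver, where the median SD of a gene on the log2 scale was 0.32, than in oil + EVNorm liver (0.228) or in oil, CCl4 and CCl4 + EVNorm liver (0.157 to 0.18). Oil replicates 2 and 3 were closer to each other than any other libraries of a group, differed beyond sampling noise and were both kept. The table held 7 of 20 hepatocyte markers listed, whose summed level was 366353 to 470564 normalized counts in oil + EVNorm liver and 550867 to 756617 in untreated liver, so that hepatocyte transcripts were abundant in every library. Of these 7 markers Ahsg, Cyp2e1 and Serpina1e were lower at the test described next and 0 were higher, against 20.5% and 10.4% of all genes. In whole liver, fewer cells of a type and less RNA per cell cannot be told apart.

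Of the genes tested, 366 were higher in oil + EVNorm than in untreated liver (10.4% of those tested) and 721 were lower (20.5%) at an adjusted p under 0.05 from limma, together 1087 genes (31%), and 2424 were not called. The rises were the larger changes. Their median log2 fold change was 1.11, against -0.60 for the falls, and 207 genes rose by at least 1 on the log2 scale where 57 fell by as much. Genes that fell were more abundant, with a median count of 1136 over the libraries against 118 for genes that rose and 296 for all genes. They also had fewer annotated exonic bases per gene, over all its transcripts, with a median of 2330 against 4745 for genes that rose. Of the genes that fell 95.8% encoded proteins, against 62.3% of those that rose. Whether transcript length or RNA quality had a part in this split was not tested. In 1319 genes (37.6%) the values of the 2 groups did not overlap, and 958 of those were among the 1087.

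The split between rises and falls depended on the scaling. The median log2 fold change of all genes was -0.11 with the authors' size factors and 0.02 with TMM factors, and with TMM 508 genes were higher and 463 lower, or 52.3% and 47.7% of the calls against 33.7% and 66.3%. The number of calls rested on the fit of all 15 libraries and on single livers. With only the 6 livers compared, 18 genes were higher and 4 lower, although 1055 genes passed an unadjusted p of 0.05 in that fit. Without oil + EVNorm replicate 3, 179 genes were higher and 270 lower, and without untreated replicate 1, 171 were higher and 224 lower. Calls for 308 genes, 118 higher and 190 lower, held in each of the 6 fits that left out 1 of these livers. Every gene described below as having risen or fallen held in those 6 fits unless its value without a liver is given.

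**Figure D1:**
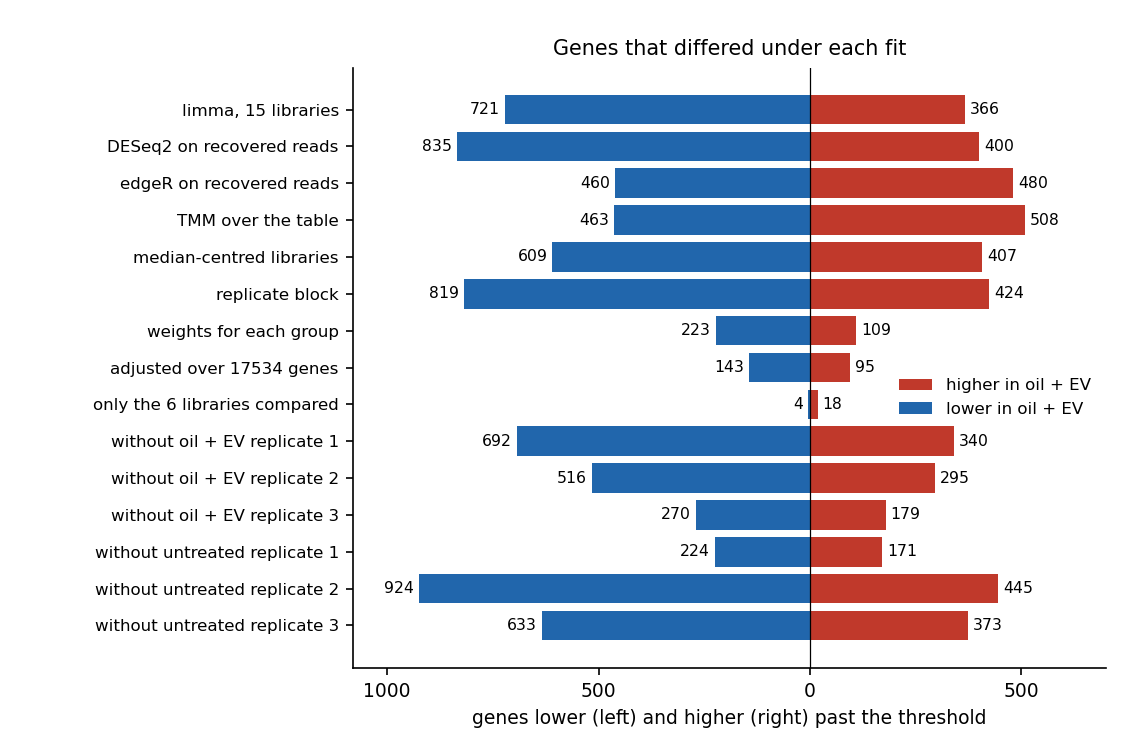
Number of genes higher and lower in oil + EVNorm than in untreated liver (x axis) under the limma fit of 15 libraries and 14 other fits (y axis). The bars of the fit with the 6 livers alone are the shortest, and those without untreated replicate 2 are the longest of the fits that left out a liver.

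**Figure D2:**
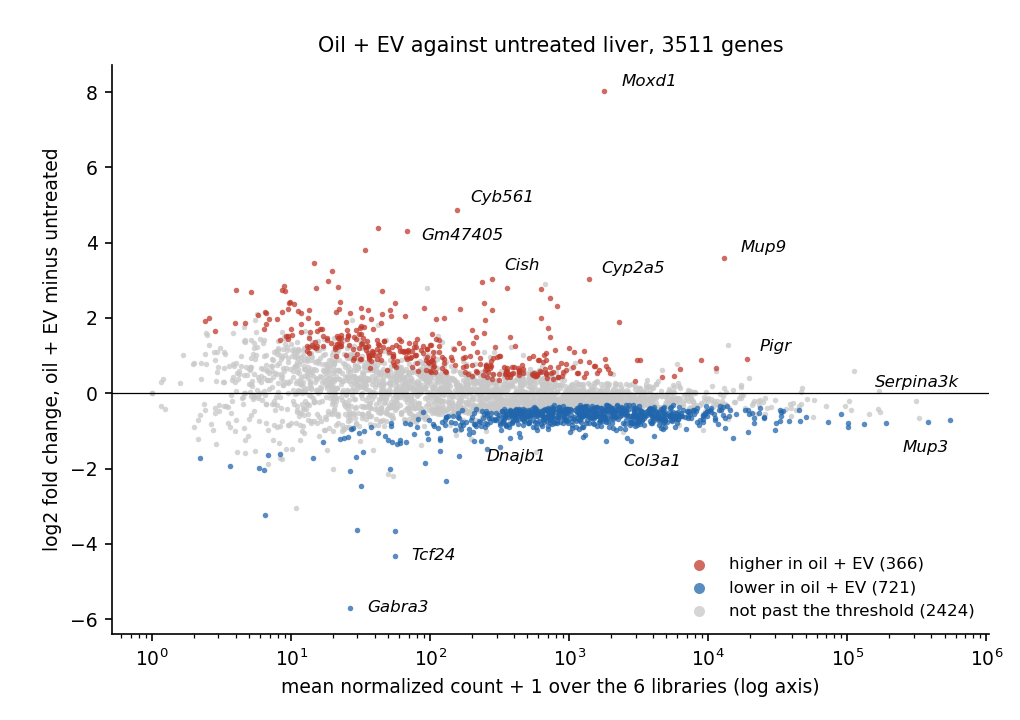
Log2 fold change of oil + EVNorm over untreated liver (y axis) against the mean normalized count + 1 of the 6 livers on a log axis (x axis), 1 point per gene, with the 366 genes higher and the 721 genes lower at an adjusted p under 0.05 in colour. The higher genes reach further from 0, while the lower genes lie mostly at larger counts and closer to 0.

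The largest rise was in Moxd1, a relative of dopamine beta-hydroxylase in the endoplasmic reticulum, on chromosome 10 from 24223517 to 24302790. Its normalized count was 2516.1, 5314.1 and 2839.4 in oil + EVNorm liver, against 21.5, 37.5 and 1.4 in untreated liver. The groups lay far apart, with a log2 fold change of 8.04 (standard error, SE, 1.65, limma adjusted p = 0.0064). Oil liver was split, at 4.2 in replicate 1 and 1744.3 and 1698.6 in replicates 2 and 3, and CCl4 liver had 4.1, 6.9 and 6.8. Tff3, which encodes a small trefoil peptide secreted with mucus and was chosen for naming after its values were seen, had the same split among oil livers. It stood at 511.2, 776.1 and 569.7 in oil + EVNorm liver, against 78.4, 99.0 and 83.4 in untreated liver, while oil livers had 70.7, 1066.1 and 1056.0 and CCl4 livers 49.0, 81.4 and 36.0. Its log2 fold change was 2.80 (SE 0.75, adjusted p = 0.014), and without untreated replicate 1 its adjusted p was 0.0582.

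Cyb561 encodes a membrane protein that carries electrons from ascorbate, and lies on chromosome 11 from 105933702 to 105953336. It had 160.3, 448.7 and 301.2 normalized counts in oil + EVNorm liver, against 8.6, 8.7 and 8.6 in untreated liver, a log2 fold change of 4.86 (SE 0.53, limma adjusted p = 0.00026). The untreated livers hardly varied, and every oil + EVNorm liver stood far above them. CCl4 livers were as high, at 254.0, 236.4 and 192.9, and oil livers lay between at 14.8, 86.9 and 65.3. Igf2bp2, an mRNA-binding protein of fetal tissues, was likewise lowest in untreated liver, with 38.0, 51.1 and 38.0 in oil liver. It had 51.0, 75.3 and 91.9 in oil + EVNorm liver, against 16.1, 15.4 and 15.8 in untreated liver, with 80, 89.8 and 70.1 in CCl4 liver (log2 fold change over untreated 2.10, SE 0.25, adjusted p = 0.00026). Both genes were among the 22 called in the 6 livers alone.

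Cyp2a5, a pericentral cytochrome P450 that hydroxylates coumarin, lies on chromosome 7 from 26835305 to 26843548. Its normalized count was 4893.7, 1437.4 and 1195.3 in oil + EVNorm liver, against 335.3, 264.4 and 172.5 in untreated liver, with a log2 fold change of 3.03 (SE 0.40, limma adjusted p = 0.00054). Oil livers were as high as oil + EVNorm livers, at 2242.6, 1531.3 and 1667.7, and CCl4 livers were at the untreated level, at 294.8, 208.8 and 183.2. Near-identical Cyp2a genes can share its reads. Cish, on chromosome 9 from 107296026 to 107302784, encodes a feedback inhibitor of cytokine and growth hormone signals that STAT5 induces. It had 874.3, 203.2 and 369.8 in oil + EVNorm liver, against 89.2, 11.5 and 103.5 in untreated liver (log2 fold change 3.05, SE 0.70, adjusted p = 0.0092). Oil livers were higher still at 917.5, 727.1 and 694.9, and CCl4 livers had 59.6, 66.0 and 43.8.

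Pigr encodes the receptor that carries polymeric immunoglobulins into bile and was the most abundant gene that rose. Its count was 27792, 23819 and 22563 in oil + EVNorm liver, against 14938, 13153 and 11373 in untreated liver, a log2 fold change of 0.91 (SE 0.14, limma adjusted p = 0.0013). Kcnk1, which encodes a potassium leak channel, rose by 2.95 on the log2 scale (SE 0.67, adjusted p = 0.0088). The transcription factor Foxq1 and the pleckstrin homology protein Phlda1, chosen after their values were seen, rose by 2.77 and 2.52 (adjusted p = 0.00064 and 0.00026). Foxq1 had 1524.0, 681.1 and 1089.5 in oil + EVNorm liver, against 207.4, 148.1 and 113.6 in untreated liver, and 175.6, 101.3 and 315.6 in CCl4 liver. For Foxq1 and Phlda1 the oil livers again stood with the oil + EVNorm livers, at 944.3 to 1505.6 and 983.5 to 1022.7.

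Several of the largest rises lay in genes whose counts are hard to assign. Gm14421 and Gm14419 belong to a cluster of near-identical zinc finger genes and pseudogenes on chromosome 2 and rose by 4.39 and 3.25, while Gm14399 of the same cluster fell by 2.02. Reads of these copies can be shared, so the opposite directions are uncertain. The noncoding models Gm47405 and D830032E09Rik rose by 4.30 and 3.82, and Gm47405 overlaps Chrm3 on the same strand. Wfdc15b, a small secreted protein with a whey acidic protein fold, rose by 3.45 on the log2 scale, with counts of 12.8 to 38.6 in oil + EVNorm liver against 0 to 4.3 in untreated liver, and Gm37465 by 2.99. Among all genes known only by a model number or clone name, 137 of 533 were higher and 35 were lower, with a median log2 fold change of 0.48 against -0.11 for all genes. Among all genes 10.4% were higher and 20.5% lower. Without oil + EVNorm replicate 3 the counts of these models were 52 and 12, where all genes gave 179 and 270. Without untreated replicate 1 they were 64 and 9, where all genes gave 171 and 224.

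The largest fall was in Gabra3, which encodes a subunit of the GABA-A receptor and lies on chromosome X from 72432681 to 72656848. It had no read in any oil + EVNorm or oil liver, against 57.0, 46.2 and 50.3 normalized counts in untreated liver. Set against a floor of 3 reads per library this is at least 15.4-fold lower (limma adjusted p = 0.003). CCl4 livers were uneven at 91.5, 0.8 and 5.8. Tcf24, a helix-loop-helix transcription factor, had 8.5, 13.2 and 0 in oil + EVNorm liver, against 95.6, 105.8 and 103.5 in untreated liver (log2 fold change -4.32, SE 0.95, adjusted p = 0.0078), and 191.1, 15.4 and 133.5 in CCl4 liver. Cd209f, a lectin of the DC-SIGN family, fell by 3.63 on the log2 scale (adjusted p = 0.0078). It stood at 2.4, 0 and 12.8 in oil + EVNorm liver, against 81.7, 17.3 and 57.5 in untreated liver, and was at 0 to 0.8 with CCl4.

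Dhrs9, which oxidizes retinol and steroids, stood at 4.9, 13.2 and 4.7 in oil + EVNorm liver, against 95.6, 75 and 133.7 in untreated liver (log2 fold change -3.67, limma adjusted p = 0.019). Its adjusted p was 0.068 without oil + EVNorm replicate 3 and 0.0634 without untreated replicate 1, but 0.0122 in the fit of the 6 livers alone. Gadd45b, which is induced by stress, had 8.5, 14.1 and 3.5 in oil + EVNorm liver, against 49.4, 24.0 and 84.8 in untreated liver. Its log2 fold change of -2.46 had an adjusted p of 0.037, which was 0.0594, 0.143, 0.107 and 0.111 without oil + EVNorm replicates 1 and 3 and untreated replicates 1 and 3 in turn. The model gene Gm42743 had no read in oil + EVNorm liver, against 22.6, 5.8 and 4.3 in untreated liver, which is at least 3.29-fold lower, with an adjusted p of 0.0806 without untreated replicate 1. Art2a-ps, a pseudogene, fell by 2.07 (adjusted p = 0.021, and 0.101 and 0.109 without those same 2 livers, oil + EVNorm replicate 3 and untreated replicate 1).

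**Figure D3:**
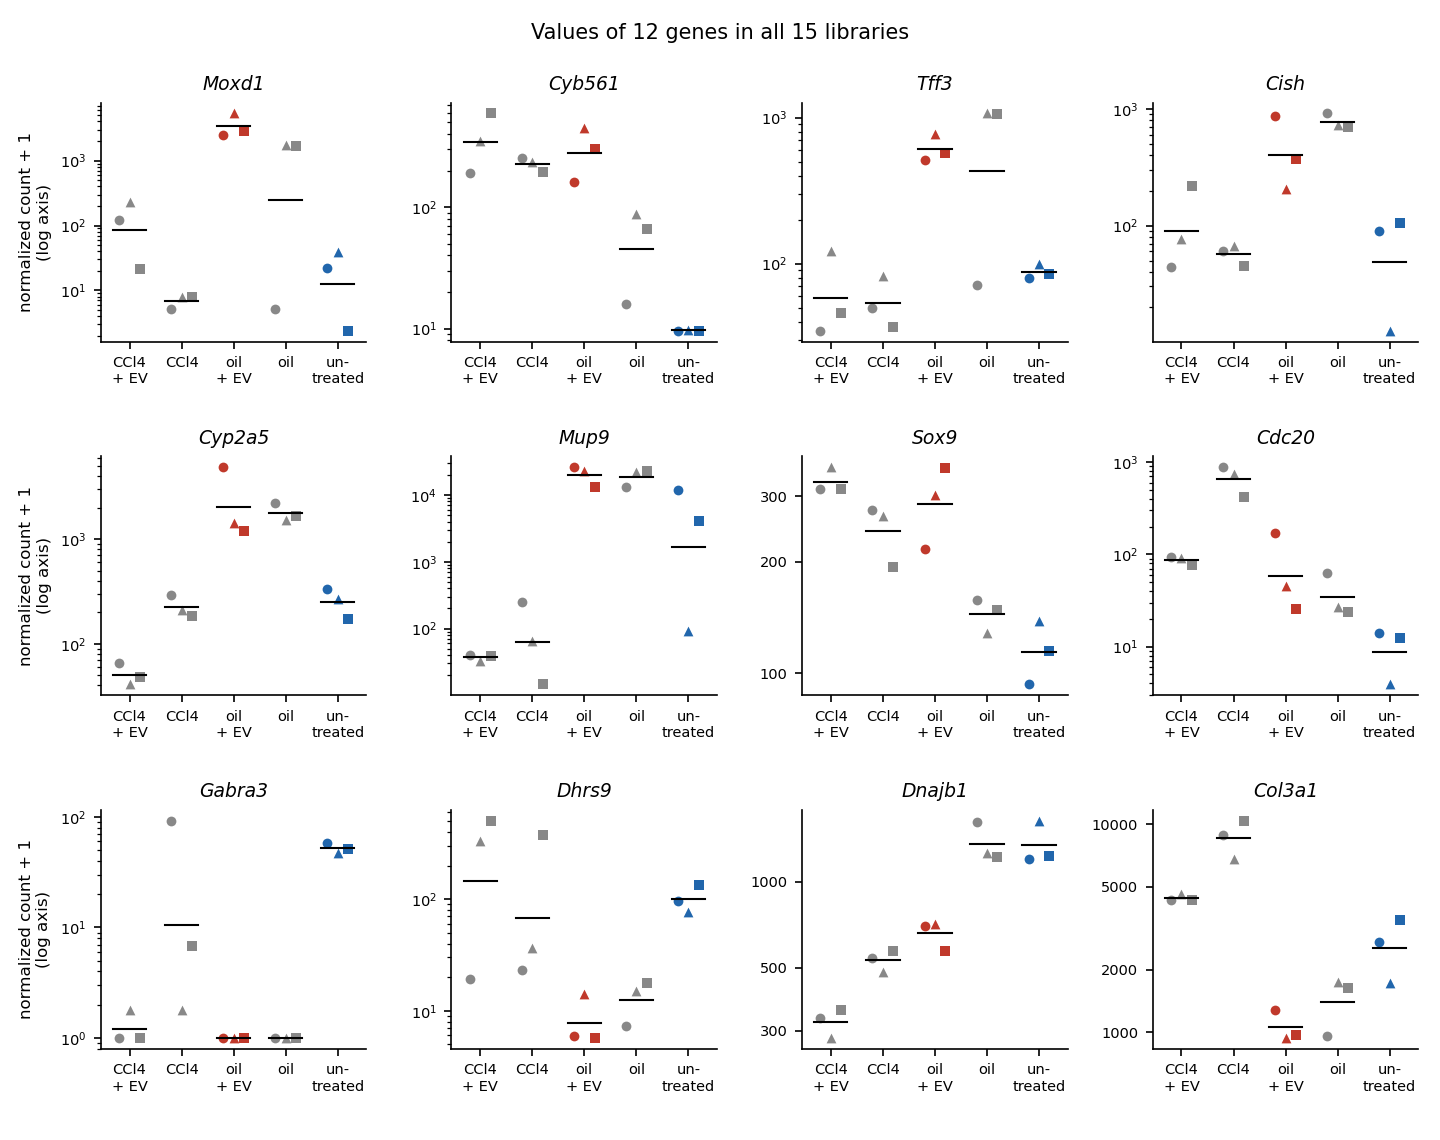
Normalized count + 1 of 12 genes (y axes, log scale) in the 15 livers, by group from CCl4 + EVNorm and CCl4 on the left to oil + EVNorm, oil and untreated on the right, with replicates 1, 2 and 3 as circle, triangle and square and the line at the geometric mean of value + 1. Moxd1 and Tff3 were low in oil replicate 1 and high in oil replicates 2 and 3, and Gabra3 was at 0 in all oil and oil + EVNorm livers.

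The broadest group to fall was the machinery of protein synthesis, respiration and protein breakdown. Of 50 cytosolic ribosomal protein genes tested, 49 were lower and 0 higher, with a median log2 fold change of -0.65 against -0.11 for all genes. Of 40 mitochondrial ribosomal protein genes 31 were lower, of 80 nuclear genes of the respiratory chain 68 were lower and of 24 proteasome subunits 20 were lower, and none of these was higher. Among all genes 20.5% were lower and 10.4% higher. Rpl30, a protein of the large ribosomal subunit, had 1386.8, 1564.4 and 1338.3 in oil + EVNorm liver, against 2681.3, 2259.5 and 3712.9 in untreated liver (log2 fold change -0.98, SE 0.18, limma adjusted p = 0.0043). Rpl37, Rpl36 and the mitochondrial Mrpl42 fell by 0.79, 0.95 and 0.74. The proteasome gene Psmb3, chosen after its values were seen because it was called in the 6 livers alone, fell by 0.78 (adjusted p = 0.00081).

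These counts shrank with single livers but the direction did not change. Without untreated replicate 1, 23 cytosolic ribosomal, 8 mitochondrial ribosomal, 28 respiratory chain and 3 proteasome genes were lower. Without oil + EVNorm replicate 3 the counts were 30, 7, 36 and 3, and with TMM factors they were 44, 19, 59 and 14. With only the 6 livers compared they were 0, 0, 0 and 1. With a weight for each group, set by its spread, they were 34, 6, 42 and 4. Of the 11 genes of the mitochondrial genome that were tested, 0 were called by limma, 3 passed an unadjusted p of 0.05, edgeR called 0 and DESeq2 called 4, all lower, and their median log2 fold change was -0.27. Of 8 ribosomal protein pseudogenes, which can share reads with their parent genes, Rps26-ps1 and Rpsa-ps10 were lower, and the call of Rpsa-ps10 was lost without any of 5 livers, with adjusted p of 0.0581 to 0.192. Median exonic bases per gene were 1754 for cytosolic ribosomal, 2541 for mitochondrial ribosomal, 1559 for respiratory chain and 2876 for proteasome genes. All genes had 3683, and whether length had a part in the result was not tested. In CCl4 liver the same cytosolic ribosomal genes had a median difference of -0.63 from oil liver and -0.97 from untreated liver.

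Heat shock proteins and chaperonins, which fold other proteins, made up a further group. Of 28 listed genes that were tested, 14 were lower and 1 was higher, against 20.5% and 10.4% of all genes. The median was -0.35, and all 28 were lower in CCl4 than in oil liver. The study singled out heat shock genes in these samples, so the list is not independent of them. Dnajb1, an Hsp40 co-chaperone on chromosome 8 from 83608193 to 83612653, had 700.7, 712.1 and 570.9 in oil + EVNorm liver, against 1201.5, 1639.3 and 1233.3 in untreated liver. It fell by 1.03 on the log2 scale (SE 0.16, limma adjusted p = 0.0011, and 0.0482 with the 6 livers alone). Oil livers were at the untreated level, with 1618.6, 1257.4 and 1222.3, and CCl4 livers had 539.0, 479.8 and 571.9. Dnajb4, a related co-chaperone, and Cct5 and Tcp1, subunits of the cytosolic chaperonin, fell by 0.58, 0.57 and 0.48.

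Other heat shock genes, named after their values were seen, were less stable. Hspa8, the constitutive Hsp70, had 12685, 13590 and 12179 in oil + EVNorm liver, against 20014, 16229 and 20757 in untreated liver, and 22248, 22273 and 22342 in oil liver. Its log2 fold change of -0.56 had an adjusted p of 0.014 from limma, which was 0.0536 without oil + EVNorm replicate 3 and 0.0534 without untreated replicate 1. Hspe1 fell by 0.51 (adjusted p = 0.015, and 0.0663 and 0.0723 without those livers). Hspb1, a small heat shock protein, went the other way, with 295.1, 181.6 and 183.7 in oil + EVNorm liver, against 44.1, 188.4 and 73.3 in untreated liver. The groups overlapped, and the adjusted p of 0.019 was 0.0613 without oil + EVNorm replicate 1 and 0.104 without untreated replicate 1. For the whole list 6 genes were lower without untreated replicate 1, 5 without oil + EVNorm replicate 3 and 8 with TMM factors. The 6 livers alone gave 1. A heat shock element of the kind printed for Hspe1 lay in the RefSeq promoter windows of 12 of the 24 list genes with a match in the promoter table (50%), and of 6 of the 12 that fell (50%), against 17% of all genes in the promoter table.

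Of 70 extracellular matrix genes 31 were lower in oil + EVNorm liver, 1, Agrn, was higher and the other 38 were not called. Among all genes 20.5% were lower and 10.4% higher. The list's median was -0.57, while 68 of the 70 were higher in CCl4 than in oil liver. The study named matrix genes from these samples, so the list is not independent of them. Col3a1 encodes the chain of type III collagen and lies on chromosome 1 from 45311538 to 45349706. It had 1281.1, 936.9 and 972.1 normalized counts in oil + EVNorm liver, against 2704.9, 1725.9 and 3475.8 in untreated liver (log2 fold change -1.27, SE 0.25, limma adjusted p = 0.0053). CCl4 livers were above both groups, at 8912.3, 6794.0 and 10411. Postn, a matrix protein bound by integrins, had 111.7, 143.0 and 101.2 in oil + EVNorm liver, against 306.3, 227.9 and 334.9 in untreated liver (-1.28, SE 0.21, adjusted p = 0.002), and 401.0, 408.4 and 541.7 in CCl4 liver.

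The gelatinase gene Mmp2, the proteoglycan gene Lum, the microfibril gene Fbn1 and the basement membrane gene Hmcn1 fell by 1.24, 0.99, 0.90 and 0.76 on the log2 scale. Values of all 4 genes were lower in each oil + EVNorm liver than in each untreated liver. Col1a1, the main chain of type I collagen, was chosen after its values were seen. It had 41.3, 16.9 and 36.0 in oil + EVNorm liver, against 104.2, 40.4 and 306.2 in untreated liver, so the groups overlapped. Its adjusted p of 0.018 from limma was 0.0703 without oil + EVNorm replicate 2, 0.06 without untreated replicate 1 and 0.0673 without untreated replicate 3. The count of matrix genes lower was 17 without oil + EVNorm replicate 3, 18 without untreated replicate 1 and 23 with TMM factors. With only the 6 livers compared it was 0. Agrn, a basement membrane proteoglycan, rose with an adjusted p of 0.039 from limma. It was 0.165 without oil + EVNorm replicate 3 and 0.185 without untreated replicate 1.

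Markers of cell types other than hepatocytes were then counted. Of 18 stellate markers tested, 7 were lower and 0 higher, where 20.5% of all genes were lower. The 7 were Col1a1, Col1a2, Col3a1, Lum, Mmp2, Postn and Reln, which the matrix list also holds. Col1a2 had an adjusted p of 0.0662 without oil + EVNorm replicate 2 and of 0.058 without untreated replicate 3. The summed level of the 18 was 6988 to 7954 in oil + EVNorm liver and 9872 to 14850 in untreated liver, against 22733 to 27676 in CCl4 liver. Of 7 endothelial markers 6 were lower, with a median of -0.76 and summed levels of 3083 to 3718 in oil + EVNorm liver and 4441 to 6579 in untreated liver. Cavin2, a protein of caveolae, had 437.2, 353.7 and 379.1 in oil + EVNorm liver, against 773.7, 656.7 and 901.3 in untreated liver (log2 fold change -0.99, SE 0.14, limma adjusted p = 0.00064). The adhesion molecule Mcam and the angiopoietin receptor Tek fell by 0.87 and 0.62. The endothelin receptor gene Ednrb fell by 0.76, with an adjusted p of 0.0716 without oil + EVNorm replicate 3 and 0.0604 without untreated replicate 1. The part of cell numbers in these results was not tested.

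No immune cell marker on the lists passed the test, and Cd209f, the lectin that fell, is not on them. Of 9 Kupffer cell and macrophage markers and 11 lymphocyte markers, limma, edgeR and DESeq2 called 0, and at an unadjusted p of 0.05 the numbers were 0 and 2. Summed macrophage markers were 4166 to 4343 in oil + EVNorm liver and 3254 to 5540 in untreated liver, so the groups overlapped. Cd4 had 57.1, 54.6 and 91.9 in oil + EVNorm liver, against 36.5, 51.0 and 41.7 in untreated liver (adjusted p = 0.11). The only neutrophil marker in the table was Lcn2, which hepatocytes also make in the acute phase. It had 411.7, 3180.5 and 166.3 in oil + EVNorm liver, against 60.2, 74 and 113.6 in untreated liver. The groups did not overlap, but the log2 fold change of 2.90 had a SE of 1.14 and an adjusted p of 0.064 from limma, while edgeR and DESeq2 called it.

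Of 5 cholangiocyte markers 3 were higher and 0 lower, where 10.4% of all genes were higher. Their median was 0.97, with summed levels of 962 to 1314 in oil + EVNorm liver and 604 to 939 in untreated liver. Sox9, a transcription factor of bile duct and progenitor cells on chromosome 11 from 112782224 to 112787760, had 214.9, 302.0 and 357.0 in oil + EVNorm liver, against 92.4, 137.5 and 113.6 in untreated liver. It rose by 1.33 on the log2 scale (SE 0.21, limma adjusted p = 0.0015), and CCl4 livers had 273.6, 264.1 and 192.9. Elf3, an epithelial transcription factor, had 24.3, 193.8 and 40.7 in oil + EVNorm liver, against 9.7, 27.9 and 5.7 in untreated liver, and its adjusted p of 0.023 was 0.0987 without oil + EVNorm replicate 2 and 0.0837 and 0.0794 without untreated replicates 1 and 3. Without untreated replicate 1, of the 3 higher markers only Sox9 was called.

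Genes of mitosis were nearly all higher in CCl4 liver, and a minority rose in oil + EVNorm liver. All 107 listed genes in the table were higher in CCl4 than in oil liver, and 12 were higher and 0 lower in oil + EVNorm liver than in untreated liver, which as a share is close to the 10.4% of all genes. Their median log2 fold change was 0.50, against -0.11 for all genes, and against 2.94 for CCl4 over oil. The study named cell division genes from these samples, so the list is not independent of them. Cdc20, which activates the anaphase-promoting complex, lies on chromosome 4 and overlaps Elovl1 on the opposite strand. It had 168.8, 44.2 and 24.4 in oil + EVNorm liver, against 12.9, 2.9 and 11.5 in untreated liver (log2 fold change 2.72, SE 0.61, limma adjusted p = 0.0082), and 881.3, 743.1 and 420.9 in CCl4 liver.

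The kinetochore genes Cenpe and Cenpf rose by 1.23 and 1.45, and oil + EVNorm replicate 1 was the highest liver for both. Without it their adjusted p was 0.0642 and 0.0727, and for Cenpf it was 0.0621 without untreated replicate 2. Of 35 DNA replication and repair genes Brca2, Rad51ap1 and Rad54l were higher and Mcm10 was lower, against 10.4% and 20.5% of all genes. The DNA repair gene Brca2 had a rise of 0.89 and an adjusted p of 0.0557 without oil + EVNorm replicate 3. Rad54l of the same list rose by 1.52, with an adjusted p of 0.0831 without oil + EVNorm replicate 1 and 0.0791 and 0.0686 without untreated replicates 1 and 2. Rad51ap1 lost its call without any of 5 livers (adjusted p = 0.0503 to 0.143), and Mcm10 without oil + EVNorm replicate 2 (0.0957) or untreated replicates 1 and 3 (0.119 and 0.0643). Of 15 p53 target genes 2, Ddias and Gtse1, were higher and 0 lower, and their adjusted p was 0.062 and 0.0773 without untreated replicate 1. The share is near the 10.4% of all genes, and 6 of the list were higher with TMM factors, 5 with edgeR and 3 with DESeq2. Without that liver 8 mitosis genes were higher, and with TMM factors 19 were. Of 11 imprinted or fetal genes Igf2bp2 and Kcnq1ot1 were higher and 0 were lower, and the list's median of 0.24 was -0.48 without untreated replicate 1 and -0.07 without oil + EVNorm replicate 3. Kcnq1ot1, a noncoding RNA antisense to Kcnq1, had 2257.4, 2525.8 and 2180.2 in oil + EVNorm liver, against 1126.2, 1754.7 and 932.9 in untreated liver (0.92, adjusted p = 0.0047).

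Detoxifying enzymes and plasma proteins are made chiefly by hepatocytes. Of 32 cytochrome P450 genes 7 were lower and 2 higher, a share of falls close to the 20.5% of all genes, with a median of -0.41. Cyp2c67 had 7808.1, 7045.9 and 13506 in oil + EVNorm liver, against 23993, 20370 and 17572 in untreated liver (log2 fold change -1.18, SE 0.22, limma adjusted p = 0.0043). Cyp2e1, the enzyme that activates CCl4, had 94711, 65957 and 52682 in oil + EVNorm liver, against 154180, 101640 and 135130 in untreated liver (-0.90, SE 0.21, adjusted p = 0.0093), and 41425, 52208 and 41794 in CCl4 liver. The P450 genes that rose were Cyp2a5 and Cyp46a1, which hydroxylates cholesterol. The adjusted p of Cyp46a1 was 0.013, 0.0646 without oil + EVNorm replicate 3 and 0.07 without untreated replicate 1. Without untreated replicate 1, 2 P450 genes were lower and 1 was higher. The study named cytochromes and detoxifying genes from these samples, so these lists are not independent of them.

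Of 34 phase 2 transferases 13 were lower and 2 higher, with a median of -0.37, against 20.5% and 10.4% of all genes. Without untreated replicate 1 the counts were 1 and 0, and without oil + EVNorm replicate 3 they were 5 and 1. Ugt2b1, which joins glucuronic acid to drugs and steroids, had 24460, 17753 and 18888 in oil + EVNorm liver, against 45131, 41107 and 33128 in untreated liver (log2 fold change -0.97, SE 0.18, limma adjusted p = 0.0046). The list's 2 rises were Ugt1a2 and Nat10, an enzyme that acetylates RNA and is no phase 2 enzyme, and both lost the call without oil + EVNorm replicate 3 (adjusted p = 0.188 and 0.0737) and without untreated replicate 1 (0.178 and 0.0682), as did Ugt1a2 without 2 further livers. Gstm3, a glutathione transferase, fell by 1.47 while CCl4 raised it, with 136.0, 82.8 and 201.2 in oil + EVNorm liver, against 421.3, 397.1 and 294.7 in untreated liver, and 1728.2, 1090.9 and 1255.8 in CCl4 liver. Its adjusted p of 0.012 was 0.055 without untreated replicate 1. Of 16 oxidative stress genes 5 were lower, namely Gstm3, Gpx7, Sod1, Txn1 and Prdx1, and Srxn1 was higher, against the same 20.5% and 10.4%. Txn1 and Prdx1, which keep proteins and peroxides reduced, fell by 0.79 and 0.66 (adjusted p = 0.0026 and 0.0093). Without oil + EVNorm replicate 3 the adjusted p of Gpx7, Sod1 and Srxn1 was 0.0597, 0.0567 and 0.0965, and without untreated replicate 1 it was 0.0742, 0.053 and 0.0887.

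Of 18 acute phase, complement and coagulation genes 7 were lower and 0 higher, with a median of -0.36, where 20.5% of all genes were lower. Ahsg, the plasma protein fetuin-A, lies on chromosome 16 from 22891277 to 22899449. It had 152730, 140470 and 120810 in oil + EVNorm liver, against 271960, 217690 and 226040 in untreated liver (log2 fold change -0.79, SE 0.19, limma adjusted p = 0.0096), while CCl4 livers, at 186610, 234750 and 208940, stood near the untreated level. Proc, the anticoagulant protein C, and Serpina3c, a protease inhibitor, fell by 0.48 and 0.61. Serpina3k, the most abundant gene that fell, had 457490, 400090 and 361260 in oil + EVNorm liver, against 868540, 646820 and 521910 in untreated liver. It overlaps Serpina3m, and its adjusted p of 0.035 was 0.0791 and 0.129 without oil + EVNorm replicates 2 and 3 and 0.122 without untreated replicate 1. Without oil + EVNorm replicate 3 or without untreated replicate 1, 3 genes of the list were lower.

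Major urinary proteins are pheromone carriers that male mouse liver makes under growth hormone. All 20 members in the table were lower in CCl4 than in oil liver. In oil + EVNorm liver 1 was higher and 1 lower, against 10.4% and 20.5% of all genes, with a median log2 fold change of 0.49. Mup9 had 26122, 22827 and 12984 in oil + EVNorm liver, against 11878, 90.4 and 4063.7 in untreated liver. Its rise of 3.59 (SE 1.26, limma adjusted p = 0.041) had an adjusted p of 0.0864, 0.0886 and 0.0789 without oil + EVNorm replicates 1, 2 and 3 and of 0.146 without untreated replicate 2. Mup3 had 289150, 270440 and 267100 in oil + EVNorm liver, against 623360, 377700 and 445280 in untreated liver (-0.78, adjusted p = 0.022, and 0.0559 and 0.075 without oil + EVNorm replicates 2 and 3 and 0.0872 without untreated replicate 1). Members are near-identical and share reads, so neither direction can be given to a single gene with certainty.

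Of 14 genes listed as male-biased or as parts of growth hormone signalling, Hsd3b5, Nudt7, Serpina1e and Ugt2b38 were lower and Cish and Stat5a higher. The median was -0.26, and among all genes 20.5% were lower and 10.4% higher. Hsd3b5, a steroid reductase of male liver, had 9850.6, 7691.3 and 9683.4 in oil + EVNorm liver, against 22030, 14896 and 14988 in untreated liver (log2 fold change -0.91, SE 0.21, limma adjusted p = 0.0092), and 4066.5, 3151.3 and 3171.1 in CCl4 liver. Nudt7, a peroxisomal hydrolase of coenzyme A, fell by 0.80. Ugt2b38 and Serpina1e lost their call without several of the livers, with adjusted p up to 0.131 and 0.152. Stat5a, a transcription factor whose activation Cish restrains, rose by 0.52, with an adjusted p of 0.028 that was 0.0674 and 0.0733 without oil + EVNorm replicates 1 and 2 and 0.0771 and 0.0989 without untreated replicates 1 and 3. Of 9 female-biased genes 1, Raet1e, was higher and 0 lower, and its adjusted p was 0.139 without oil + EVNorm replicate 3 and 0.117 and 0.0698 without untreated replicates 2 and 3. The STAT5-type letters printed for Cish and Moxd1 lay in promoter windows of 4 of the 24 genes with a match in the promoter table (16.7%) among the 39 that rose but were lower in CCl4 than in oil liver, namely Pigr, Ahcyl2, Cish and Moxd1. The call of Ahcyl2 was lost without oil + EVNorm replicate 1 (adjusted p = 0.103) and without untreated replicate 1 (0.112). All genes in the promoter table had them at 9.55%, the genes tested at 8.16%, and the genes that rose or fell at 9.42% and 8.29%. Of the 14 growth hormone genes 9 had a match in the promoter table, and 1 of those had the letters (11.1%). Cish and Moxd1 were picked for printing from these results and are among the 4, so that share is not independent of these data.

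Of 10 bile acid genes Slc10a1 and Slco1b2 were lower, a share close to the 20.5% of all genes, and 0 were higher. Slc10a1, the main uptake carrier of bile acids, had 6564.6, 6321.6 and 6896.3 in oil + EVNorm liver, against 12222, 10208 and 10006 in untreated liver (log2 fold change -0.71, SE 0.14, limma adjusted p = 0.005), and 4299.3, 3918.2 and 4055.6 in CCl4 liver. Of 15 lipogenesis and triglyceride genes, Apoc3 and Agpat5 fell by 0.53 and 0.51 and 0 rose, although the list's median of -0.13 turned to 0.01 with TMM factors. Of 17 fatty acid oxidation genes Etfa, Etfdh and Fabp1 were lower. Of 18 amino acid and urea cycle genes Arg1, Hgd, Otc and Tdo2 were lower, and of 6 glucose genes Pygb. In these lists 0 genes were higher, and the shares of falls are close to the 20.5% of all genes. The amino acid and glucose medians of -0.09 and -0.05 became 0.05 and 0.09 with TMM factors. These 8 genes and Slco1b2 lost their call without untreated replicate 1, with adjusted p from 0.0583 (Etfa) to 0.234 (Fabp1), and all but Etfa also without oil + EVNorm replicate 3, with adjusted p from 0.0592 (Slco1b2) to 0.167 (Etfdh). Without a further liver all but Arg1 and Slco1b2 lost it too, with adjusted p from 0.0527 (Etfa) to 0.125 (Otc). Of 8 cholesterol genes 1 was higher and 0 were lower, where 10.4% of all genes were higher. Of 59 solute carriers and ABC transporters 6 were lower and 0 higher (median -0.07), while TMM gave 5 lower and 6 higher (median 0.07), 1 was lower without untreated replicate 1 and 2 were lower without oil + EVNorm replicate 3. This share of falls was below the 20.5% of all genes. Of 18 pericentral genes Cyp2a5 was higher and 6 were lower, against 20.5% lower among all genes, and the number lower was 1 without untreated replicate 1 and 3 without oil + EVNorm replicate 3. Of 8 periportal genes Pigr, Sox9 and Aldh1b1 were higher and Arg1 and Otc lower (median -0.01, or 0.13 with TMM factors). The call of Aldh1b1 was lost without oil + EVNorm replicate 1 (adjusted p = 0.0634) and without untreated replicates 1 and 3 (0.0522 and 0.077).

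The remaining lists had few calls, and among all genes 20.5% were lower and 10.4% higher. Of 23 interferon-inducible genes Usp18 was lower and Ifi27l2b higher, while TMM factors gave 1 lower and 4 higher and DESeq2 2 lower and 0 higher. Usp18, which damps interferon signals, had an adjusted p of 0.011 from limma and of 0.0504 without untreated replicate 1. The call of Ifi27l2b was lost without any of 4 livers, with adjusted p of 0.0822 to 0.115. Of 7 immediate early and 7 endoplasmic reticulum stress genes 1 each, Gadd45b and Mydgf, was lower and 0 were higher, and Mydgf had an adjusted p of 0.0508 without oil + EVNorm replicate 3 and 0.0554 without untreated replicate 1. Of 5 antigen presentation and 3 clock genes limma, edgeR and DESeq2 called 0, as many as at an unadjusted p of 0.05. Of 63 zinc finger genes 9 were higher and 1, Zfp141, was lower, with a median of -0.03 that became 0.12 with TMM factors, and the call of Zfp141 was lost with TMM factors (adjusted p = 0.167) and without any of 5 livers (0.0573 to 0.145). The share of rises is near the 10.4% of all genes, and 3 genes were higher without untreated replicate 1 and 4 without oil + EVNorm replicate 3. Zfp865 had 120.2, 133.6 and 216.3 in oil + EVNorm liver, against 69.9, 64.4 and 79.1 in untreated liver (log2 fold change 1.08, adjusted p = 0.0064). Of 3 markers of pancreas, fat or blood Cela1, a pancreatic elastase, and Alas2, an enzyme of red cell heme synthesis, were lower, and without untreated replicate 1 neither was (adjusted p = 0.0633 and 0.143). Alas2 also lost its call without oil + EVNorm replicates 2 and 3 (0.114 and 0.106) and untreated replicate 3 (0.0615).

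**Figure D4:**
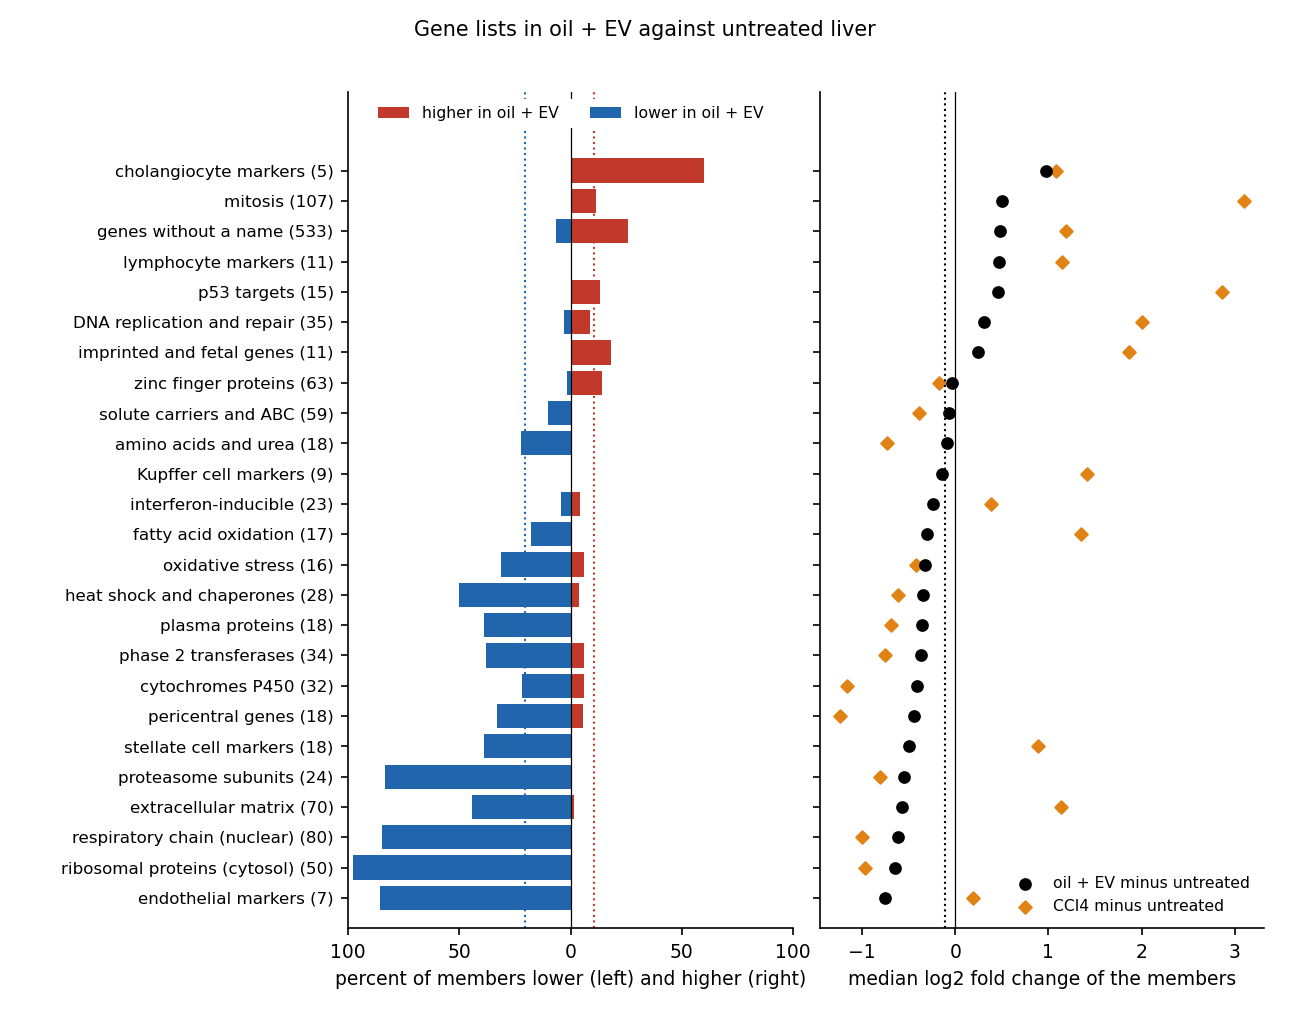
Left, percent of the members of 25 gene lists that were lower or higher in oil + EVNorm than in untreated liver, with dotted lines at the 20.5% and 10.4% of all genes. Right, median log2 differences of each list for oil + EVNorm minus untreated (black) and CCl4 minus untreated (orange diamonds), which share the untreated livers, with a dotted line at the -0.11 of all genes. Matrix, stellate, endothelial, Kupffer cell, interferon-inducible and fatty acid oxidation lists lie below 0 in black and above 0 in orange.

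The genes that differed were then followed into CCl4 liver. A gene is called CCl4-induced here if its fitted mean was higher in CCl4 than in oil liver, as in 1711 genes (48.7%), and CCl4-suppressed if lower, as in 1800 (51.3%). No liver enters both this difference and that of oil + EVNorm from untreated liver, but the table was chosen on it, so no test was made. Of the 366 genes that were higher in oil + EVNorm liver 327 were CCl4-induced (89.3%), and of the 721 that were lower 635 were CCl4-suppressed (88.1%). Among the 308 genes whose call held when any of the 6 livers was left out, the numbers were 97 of 118 and 162 of 190. Among genes that fell by at least 1 on the log2 scale the share was 36.8%, since the largest falls included Gabra3, Tcf24 and matrix genes, which were higher in CCl4 than in oil liver. Put the other way, 19.1% of all CCl4-induced genes rose and 35.3% of all CCl4-suppressed genes fell.

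**Figure D5:**
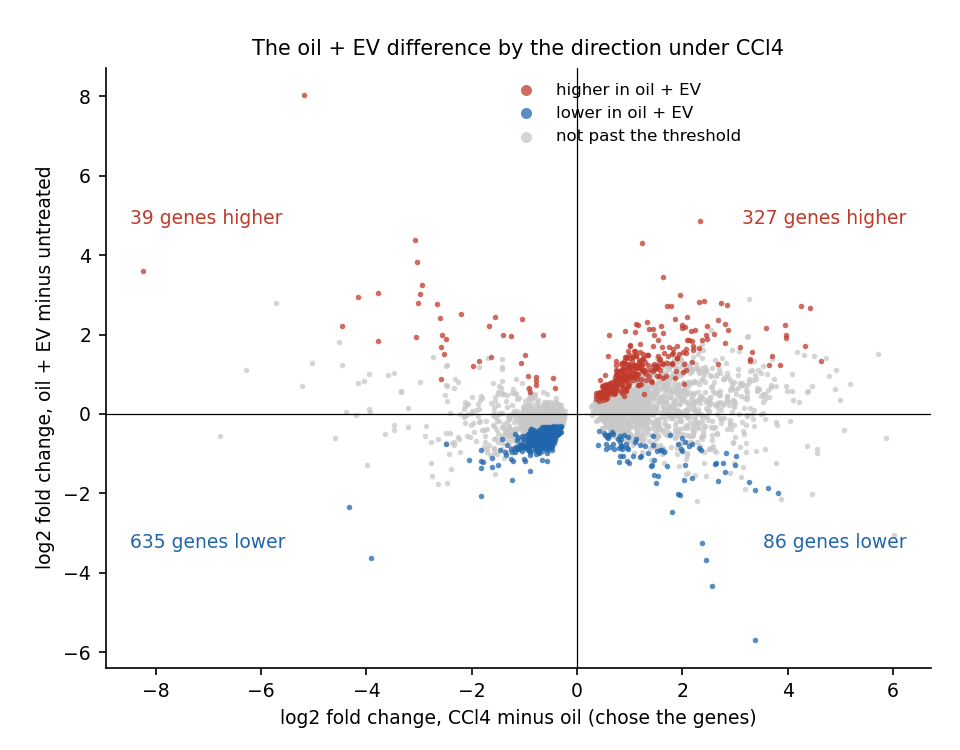
Log2 difference of CCl4 from oil liver against log2 fold change of oil + EVNorm over untreated liver for each gene, with the genes that differ between oil + EVNorm and untreated liver in colour and their number in each direction of the 2 differences. Of the genes that differed, 327 and 635 lie where both differences have the same sign, and 39 and 86 where the signs differ.

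The 327 genes that rose and were CCl4-induced had a median log2 difference of 1.08 for oil + EVNorm over untreated liver. Oil over untreated gave 0.35, oil + EVNorm over oil 0.61 and CCl4 over untreated 1.41. These differences share livers with each other and are set side by side only. Such genes included Cyb561, Sox9 and Cdc20, and among the most abundant Zbtb20, a transcriptional repressor, and Myh9, a nonmuscle myosin. The call of Zbtb20 did not hold without oil + EVNorm replicate 3 (adjusted p = 0.156 from limma) or without untreated replicate 1 (0.171), and that of Myh9 did not hold without untreated replicate 1 (0.0555).

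The 39 genes that rose and were CCl4-suppressed had a median difference from untreated liver of 1.96 with oil + EVNorm, of 1.84 with oil and of -0.04 with CCl4, and oil + EVNorm differed from oil by 0.08. Moxd1, Cish, Cyp2a5, Tff3, Foxq1, Phlda1, Kcnk1, Mup9 and Pigr belong here, as do the liver transcription factors Foxa1 and Hhex. Differences of CCl4 from untreated liver in these 11 genes ran from -4.72 in Mup9 to 0.59 in Pigr. The 86 genes that fell and were CCl4-induced, 31 of them matrix genes, had median differences from untreated liver of -0.90 with oil + EVNorm, -0.60 with oil and 0.56 with CCl4. The 635 genes that fell and were CCl4-suppressed had -0.58 with oil + EVNorm, -0.26 with oil and -0.87 with CCl4.

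In the same fit 32 genes (0.911%) passed the threshold between oil and untreated liver, 25 higher (0.712%) and 7 lower (0.199%). Between oil + EVNorm and oil liver 8 genes passed (0.228%), 5 higher (0.142%) and 3 lower (0.0854%). Between CCl4 and untreated liver 3060 genes passed (87.2%), 1456 higher (41.5%) and 1604 lower (45.7%). Gabra3, Cish, Cyp2a5, Foxq1, Phlda1 and Pigr were among the 32, with log2 differences of oil from untreated liver of -5.70, 3.98, 2.84, 2.89, 2.34 and 1.04. The 3 genes lower with oil + EVNorm than with oil were Dnajb1, Hspa8 and Cavin2, at -1.04, -0.80 and -0.73. Of the 1087 genes that differed between oil + EVNorm and untreated liver 35 passed in either of these smaller comparisons, which share livers with it.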

How the data were processed

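RNA of 15 mouse livers was sequenced, 3 in each of 5 groups, from libraries depleted of ribosomal RNA and made with a stranded kit and adapters that carry molecular identifiers. Per the study's methods, the authors aligned reads to the mouse genome GRCm38.p3 with STAR, counted them on the Gencode annotation with featureCounts and tested them with DESeq2. Whether strand and identifiers were used in counting is not given in the sources used here. The deposited signal values are gene counts that the authors scaled by 1 size factor a library and rounded to 1 decimal, and the table holds genes with an adjusted p under 0.05 between CCl4 and oil. Multiplied back, 100% of values were whole reads within 0.05. The authors' p-values for CCl4 against oil were read only to find that their adjustment ran over 17534 genes, and their fold changes were not used.

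The comparison was oil + EVNorm minus untreated on log2(value + 1), in limma 3.58.1 (R 4.3.3) with 1 mean per group over all 15 libraries and a mean-variance trend, two-sided, with Benjamini-Hochberg adjustment over all genes of the table and a threshold of 0.05. No low-count filter was used. Fold changes are on that scale and understate changes of low genes. P-values rest on a spread for each gene that was pooled over all 15 libraries, not on the livers compared alone. The median SD of a gene was 0.32 in untreated and 0.228 in oil + EVNorm liver, against 0.157 to 0.18 in the other groups. The pooled spread can thus make p-values of this comparison too small. Alternatives were edgeR 4.0.16 and DESeq2 1.42.0 on the recovered reads, other scalings, pseudocounts, filters and priors, a replicate block, and leaving out livers. The limma step was tested on simulated data in which a gene had the same spread in every group. That test therefore does not cover the wider spread of the untreated livers. Reads recovered from these genes (6106856 to 11055679 a liver) set the precision, and are not the library totals, since the table holds a part of the genes.

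The comparison and the gene lists were chosen with earlier results of these data known. Genes named had to pass the threshold, with groups apart and a mean of at least 10 in the higher group, and were the 12 largest changes and the 6 most abundant genes in each direction, and up to 4 per list by p, or up to 2 by p where a list had none. Agrn, Ahcyl2, Col1a2, Cyp46a1, Elf3, Foxa1, Hhex, Ifi27l2b, Mcm10, Nat10, Rad51ap1, Reln, Rps26-ps1, Rpsa-ps10, Srxn1, Stat5a, Ugt1a2 and Zfp141 fall outside this rule and were chosen after their values were seen, as were those so marked in the text. Coordinates are from GENCODE on GRCm38, and promoters from RefSeq on GRCm38.p6, where 2401 genes matched by symbol. Values of a few selected genes are left out here.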

Additional observations from a re-analysis of the deposited data

How the results depend on the processing

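The counts of genes that differed between oil + EVNorm and untreated liver moved with the processing. None of the 103 called genes named by rule changed the sign of its fold change under any alternative, but TMM factors turned the median of all genes from -0.11 to 0.02 and the larger share of the calls from lower to higher genes. Against 366 higher and 721 lower, TMM factors gave 508 and 463, edgeR on recovered reads 480 and 460, and adjustment over the 17534 genes that the authors tested 95 and 143. Weights for each group, an alternative chosen after seeing the data because untreated livers spread more, gave 109 and 223, a log2 fold change of at least 1 gave 207 and 57, and the 6 libraries alone gave 18 and 4. Leaving out 1 of the 6 livers gave 171 to 445 higher and 224 to 924 lower. The cause of these shifts was not tested, apart from the fewer samples or the wider adjustment that some of the settings impose. Other pseudocounts, a filter at a mean count of 10, a robust prior, a fit without the trend, median-centring, DESeq2, and leaving out oil replicate 3, chosen after seeing the data, kept both counts within 1.5 times, at 338 to 407 higher and 609 to 835 lower.

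The share of higher genes that CCl4 induced, 89.3%, was 55.6% with the 6 libraries, 81.1% with adjustment over 17534 genes, 83.5% with group weights, 85.5% at a log2 fold change of at least 1 and 83.2% to 90.9% leaving out 1 liver. The share of lower genes that CCl4 suppressed, 88.1%, was 50%, 84.6%, 91.9% and 36.8% under the same 4 settings and 80.8% to 90.5% leaving out 1 liver. Of the 103 genes named by rule that passed the test 53 held in every such fit, and 10, 14 and 32 were lost without oil + EVNorm replicates 1, 2 and 3, and 45, 6 and 8 without untreated replicates 1, 2 and 3. TMM lost 13 of the 103, edgeR 16, DESeq2 2 and the 6 libraries 95. A replicate block gave 424 higher and 819 lower, and with TMM 578 and 514. Deviations of livers with the same number correlated at 0.199, -0.037 and 0.109 for numbers 1, 2 and 3. Livers with different numbers correlated at -0.259 to 0.158. What a number marks is not given in the sources used here, and these values cannot settle whether livers with the same number share a batch or litter. Of the 113 genes named by rule 47 overlap another annotated gene, and 3 livers a group limit what could be detected.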
